A study of Mus musculus with 8 samples.

Results

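The 9 genes described here included Aldh1a1, Aldh1a2, Aldh1a3 and Aldh1a7 of the Aldh1a family. With them stood the retinol dehydrogenase Rdh10, the retinol transporter Stra6, and the nuclear receptors Rara, Rxra and Rxrg. These 9 genes are among the 31053 in the count table. They were taken by symbol as a family and a set of its pathway partners, and Aldh1a1 was chosen by its lower normalized count in the Cd36KO libraries as well as by the study naming it. Its difference between the groups is therefore given as a description, with no test. Bulk RNA-seq was performed on brown adipose tissue (BAT), the thermogenic fat depot, of C57BL6/J mice labelled as 8 weeks old, with 4 WT and 4 Cd36KO libraries. CD36 is a scavenger receptor for lipids. By label the genotype is Cd36KO with no further detail. The study describes a germline deletion and a deletion in myeloid cells by a Csf1r-driven Cre acting on floxed Cd36, and attributes its BAT transcriptome to the latter. The study's methods give an older age at sacrifice for that model, while its figure legends give the 8 weeks of the labels. In that model Cd36 stays intact in adipocytes and endothelial cells. The labels do not say whether each library came from a separate animal, so p-values measure the spread between these libraries.

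Retinoic acid, the active form of vitamin A, is made in 2 oxidation steps. Retinol bound to RBP4 enters cells through STRA6. Alcohol and short-chain dehydrogenases such as RDH10 oxidize it to retinaldehyde, and ALDH1A enzymes such as ALDH1A1 oxidize retinaldehyde irreversibly to retinoic acid. Retinoic acid binds the receptors RARα, RARβ and RARγ, which act as heterodimers with the RXRs on direct repeats of a short half-site and induce genes such as Rarb and Cyp26a1. In fat, ALDH1A1 is known as the main retinaldehyde dehydrogenase of white depots, and mice without it are known to have more thermogenic white fat.

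Aldh1a1 and Aldh1a7 are close copies, and their sequences decide how well reads can tell them apart. Aldh1a1 lies on chromosome 19 from 20492715 to 20643465 on the plus strand and Aldh1a7 from 20692953 to 20727562 on the minus strand (GENCODE annotation of GRCm38). The aligned positions of Aldh1a1-201 (2053 bases) and Aldh1a7-201 (2066 bases) were 89.8% identical, against 70.2% between Aldh1a1 and Aldh1a2 and 72.7% between Aldh1a1 and Aldh1a3. The likeness extended upstream of the start. The 250 bases before the RefSeq start of each gene (GRCm38.p6) are shown because 94 of the last 100 were identical, with a longest identical run of 65 bases. Capitals mark an octamer motif, ATGCAAAT, at 56 to 49 bases before the start in both genes, and each CCAAT on the gene's strand. The Aldh1a1 bases are chr19:20601718-20601967 on the plus strand, within the gene, since 5 of its 6 annotated transcripts start upstream of them. The Aldh1a7 bases are chr19:20727557-20727806 on the minus strand.
Aldh1a1: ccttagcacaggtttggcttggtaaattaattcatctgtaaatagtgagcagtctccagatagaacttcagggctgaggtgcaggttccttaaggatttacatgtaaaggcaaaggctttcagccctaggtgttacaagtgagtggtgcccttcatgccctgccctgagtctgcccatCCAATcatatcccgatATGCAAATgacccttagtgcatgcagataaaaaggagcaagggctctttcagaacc
Aldh1a7: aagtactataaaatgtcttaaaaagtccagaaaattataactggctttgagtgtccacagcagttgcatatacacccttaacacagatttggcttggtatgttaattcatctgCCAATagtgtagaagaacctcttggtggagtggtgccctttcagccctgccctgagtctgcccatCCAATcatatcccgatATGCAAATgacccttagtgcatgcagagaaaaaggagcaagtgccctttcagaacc
The octamer was found on either strand in 1.60% of the 32817 promoters of the same length and CCAAT in 33.8%, so the first of these shared motifs was rare and the second common.

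Total counts per library ranged from 2679785 to 4097953. The labels call the cell type stromal vascular fraction, but adipocyte genes were abundant in every library, with 2458 to 6294 normalized counts of Adipoq, so the libraries held adipocyte RNA. Cd36 itself was at 2918 ± 454 normalized counts in the WT group and at 2087 ± 216 in the other (SD, n = 4). Every Cd36KO library (1926 to 2384) lay below every WT library (2412 to 3505), but the gene was not called. Its log2 fold change was -0.48 (SE 0.16, DESeq2 adjusted p = 0.0602, edgeR adjusted p = 0.191). WT replicate 1 stood apart, with 46490 summed normalized counts of 10 skeletal muscle markers against 547 to 9498 in the other WT libraries. Xist had 772 to 1588 counts in the 8 libraries, Uty, Kdm5d and Eif2s3y had 0, and Ddx3y had 0 to 3. This is the pattern of female tissue, whereas the study's methods describe male mice. In bulk tissue, fewer cells of a type and less RNA per cell cannot be told apart.

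Aldh1a1 was lower in every Cd36KO library than in any WT library. It had 75.8, 97.7, 56.5 and 107 normalized counts in WT replicates 1 to 4. In Cd36KO it had 34.5 in the library without a replicate number and 20.7, 12.3 and 28.2 in replicates 2, 3 and 4. The groups did not overlap, and the lowest WT value was 1.64 times the highest Cd36KO value. The means were 84.2 ± 22.6 and 23.9 ± 9.61 (SD, n = 4 each), which corresponded to a log2 fold change of -1.81 (SE, its standard error in this fit, 0.34). These values rested on 355 raw counts in WT and 98 in Cd36KO. Groups without overlap were seen in 8.65% of the 9834 genes whose normalized counts averaged at least 10, and nothing is read from this for Aldh1a1, which was chosen for its difference.

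**Figure D1:**
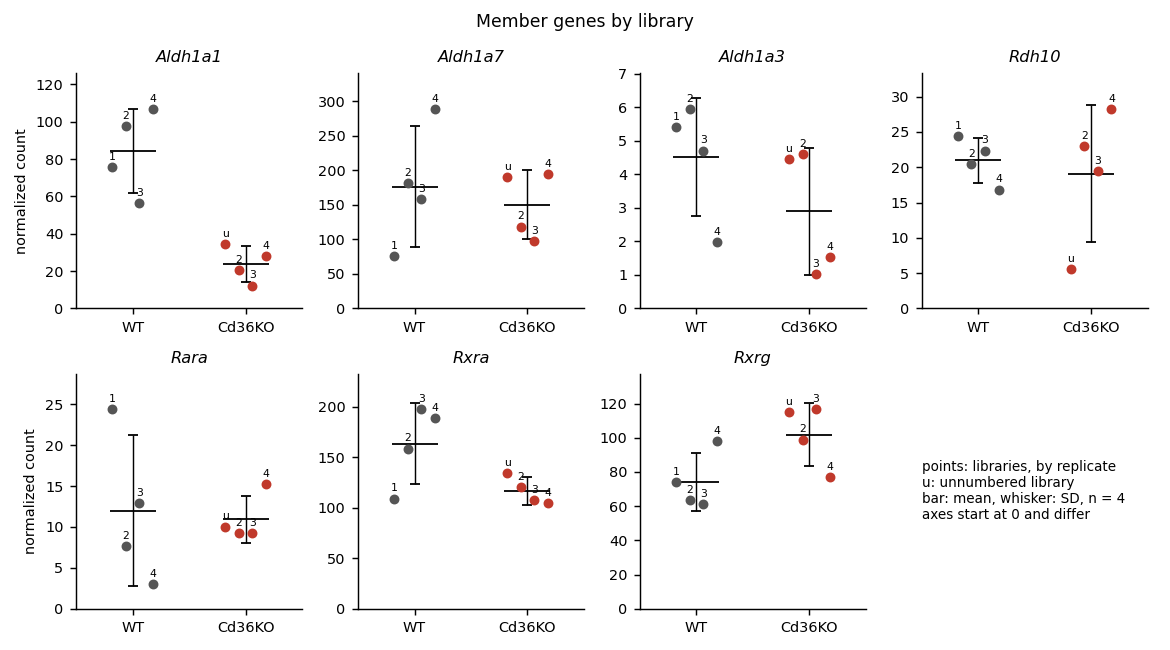
Normalized counts of the 7 member genes with more than 3 counts in a group, by library, in WT (grey) and Cd36KO (red), with the replicate number at each point (u, unnumbered), the mean as a bar and the SD as a whisker (n = 4). For Aldh1a1 all 4 Cd36KO points lie below all 4 WT points, and for the 6 other genes the groups overlap. Each vertical axis starts at 0 and has its own scale.

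Aldh1a7, the neighbouring copy, did not pass the test and its groups overlapped. It had 75.8, 182, 159 and 289 normalized counts in the WT replicates in order. In Cd36KO the unnumbered library had 190.5 normalized counts of Aldh1a7 and replicates 2, 3 and 4 had 118.5, 97.2 and 195. The Cd36KO values thus fell within the WT range. The estimated log2 change was -0.23 (SE 0.35; 95% interval from -0.91 to 0.46), with a DESeq2 adjusted p of 0.823 across the whole table. Without WT replicate 4 the estimate was 0.12.

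Because both genes were counted in the same libraries, their ratio does not depend on the scaling between libraries. The ratio of Aldh1a1 to Aldh1a7 counts was 1.0, 0.537, 0.356 and 0.370 in WT replicates 1 to 4. In Cd36KO it was 0.181 in the unnumbered library and 0.175, 0.126 and 0.145 in replicates 2 to 4. The ratio was lower in every Cd36KO library than in any WT library. It is given with no test, since it contains Aldh1a1, so the difference between the copies was not tested. The highest ratio, in WT replicate 1, came with the lowest Aldh1a7 value of the 8 libraries. Counting the copies as 1 gene gave 260.5 ± 104 normalized counts for WT and 174 ± 59.0 for Cd36KO (SD, n = 4 each) and a log2 fold change of -0.58 (SE 0.31). Little of either transcript was shared at the read length used. Of the 75-base windows of Aldh1a1-201, 2.53% also occurred in another Aldh1a gene, and none of the 426 windows in its last 500 bases did.

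**Figure D2:**
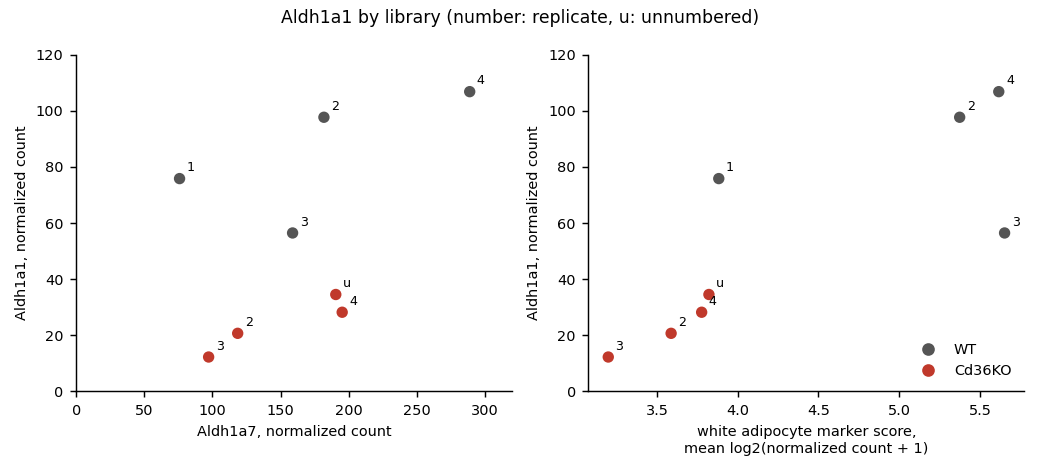
Normalized counts of Aldh1a1 (vertical axes, from 0) against those of Aldh1a7 (left) and against the white adipocyte marker score, the mean log2(normalized count + 1) of 10 genes (right), with a point per library (WT grey, Cd36KO red; the number is the replicate and u the unnumbered library). At overlapping Aldh1a7 values the WT points lie above the Cd36KO points, and WT replicate 1 has 75.8 normalized counts of Aldh1a1 at a marker score of 3.88, near the Cd36KO scores of 3.20 to 3.82.

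The other Aldh1a genes, Aldh1a2 and Aldh1a3, were barely detected. Aldh1a2, known for retinoic acid synthesis in the embryo and in mesothelium, had 1 count over the 4 WT libraries and 1 over the 4 Cd36KO libraries, below a floor of 3 counts, so no difference was detectable at this depth. Aldh1a3 had 5.42, 5.95, 4.70 and 1.98 normalized counts in WT replicates 1 to 4. In Cd36KO it had 4.46 in the unnumbered library and 4.60, 1.02 and 1.52 in replicates 2 to 4. The groups overlapped, and DESeq2's independent filter gave Aldh1a3 no adjusted p (log2 fold change -0.68, SE 0.89, 19 and 11 counts). Stra6, the RBP4 receptor, had no count in WT and 1 in Cd36KO.

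Rdh10, which makes retinaldehyde, was low and did not pass. It had 24.4, 20.4, 22.4 and 16.8 normalized counts in WT replicates 1 to 4. In Cd36KO the unnumbered library had 5.57 and replicates 2, 3 and 4 had 23.0, 19.4 and 28.2, so a single Cd36KO library lay below the WT range and another above it. For Rdh10 the log2 fold change was -0.12 (SE 0.46, DESeq2 adjusted p = 0.939) and was 0.18 without the unnumbered library.

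The 3 receptors among the members had estimates of either sign, and none passed. Rxra, an obligate partner of the RARs, had 109, 159, 198 and 189 normalized counts in WT replicates 1 to 4. In Cd36KO Rxra had 135 in the unnumbered library and 121, 107 and 104.5 in replicates 2 to 4. The groups overlapped only through WT replicate 1. For Rxra the log2 fold change was -0.49 (SE 0.23, DESeq2 unadjusted p = 0.0337, adjusted p = 0.264).

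Rxrg, the RXR typical of muscle and brain and also found in brown fat, had 74.0, 63.7, 61.2 and 97.9 normalized counts in WT replicates 1 to 4. In Cd36KO the unnumbered library had 115 and replicates 2, 3 and 4 had 99.0, 117 and 77.0. Replicate 4 of each group crossed into the range of the other. For Rxrg the log2 fold change was 0.45 (SE 0.25, DESeq2 adjusted p = 0.371). The ratio of Rxra to Rxrg counts was 1.48 to 3.23 in WT and 0.921 to 1.36 in Cd36KO. These ranges did not overlap, but the ratio was picked with its values in view and was not tested. Rara ranged from 2.97 to 24.4 normalized counts across WT and from 9.21 to 15.2 across Cd36KO, with the highest value in WT replicate 1. Its log2 fold change was -0.12 (SE 0.61, DESeq2 adjusted p = 0.958), and 0.51 without that library.

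DESeq2 thus called 0 of the 5 members beside Aldh1a1 that received an adjusted p, against 2.95% of all 9617 genes with an adjusted p. The edgeR quasi-likelihood test called 0 of the 4 it kept, against 0.143% of its 9793 genes. A single member, Rxra, had an unadjusted p under 0.05, in either test.

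The rest of the pathway was taken from a list of 45 genes that includes the 9 members. Of these, 36 had a count, 22 averaged at least 10 normalized counts, and the same number received an adjusted p. Beside Aldh1a1, which was chosen for its difference and is not counted, none of the 21 others was called in either direction, where 1.42% of all genes were called higher and 1.53% lower. The median log2 fold change of the 22 genes was 0.07, with 12 positive and 10 negative, against -0.01 over all 9834 genes at that level.

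By role, the gene with the most counts in uptake and retinol binding was Rbp7, a retinol-binding protein of fat endothelium, with 278 ± 26.4 normalized counts for WT and 334 ± 130 for Cd36KO (SD, n = 4; DESeq2 adjusted p = 0.656). Scarb1, a receptor that takes up carotenoids, had 149 ± 27.4 and 163 ± 12.8 (DESeq2 adjusted p = 0.815). Adh1, an alcohol dehydrogenase that oxidizes retinol, had 712 ± 278.5 and 648 ± 137 (DESeq2 adjusted p = 0.873). Cyp26b1, which degrades retinoic acid, had 12.7 ± 3.39 and 12.7 ± 12.9, and its relatives Cyp26a1 and Cyp26c1 had no count. Lrat, which esterifies retinol for storage, and Crabp2, which carries retinoic acid to its receptors, had at most 2 counts in a group. Rbp7, Scarb1, Adh1 and Cyp26b1 did not pass, and Lrat, Crabp2, Cyp26a1 and Cyp26c1 received none.

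Dhrs9 and Rbp4, named for the size of their estimates, were genes in which WT replicate 1 stood apart. Dhrs9, a retinol dehydrogenase, had 74.9, 11.9, 3.53 and 4.95 normalized counts in WT replicates 1 to 4. In Cd36KO Dhrs9 had 34.5 in the unnumbered library and 54.1, 49.1 and 19.8 in replicates 2 to 4, above all WT libraries but the first. Its log2 fold change was 0.72 (SE 0.98, DESeq2 adjusted p = 0.799). Without WT replicate 1 it was 2.48 (SE 0.54, DESeq2 adjusted p = 0.000445).

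Rbp4, the retinol carrier that adipocytes secrete, had 64.1, 321, 247 and 475 normalized counts in the WT replicates in order and 237, 145, 73.7 and 249 in the unnumbered Cd36KO library and replicates 2 to 4. Its lowest value was in WT replicate 1. The log2 fold change of Rbp4 was -0.65 (SE 0.65, DESeq2 adjusted p = 0.700), and -0.98 without WT replicate 1 (DESeq2 adjusted p = 0.0655).

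**Figure D3:**
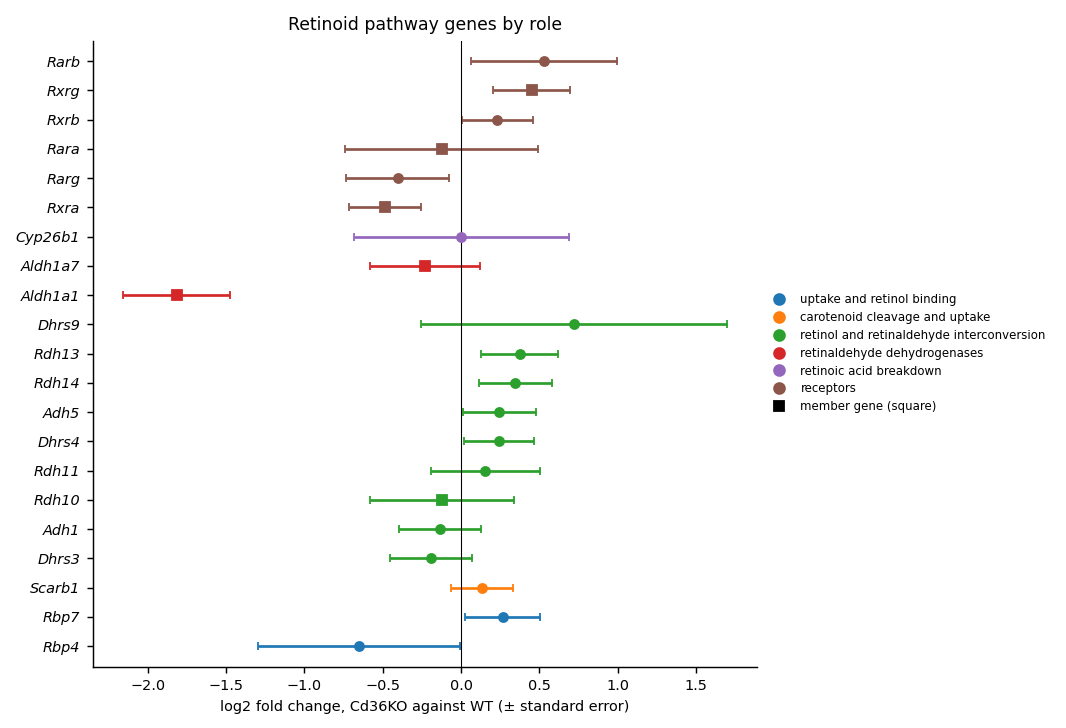
Log2 fold change of Cd36KO against WT with its standard error for 21 retinoid pathway genes whose normalized counts averaged at least 10, coloured by role, with member genes as squares. Among the genes plotted Aldh1a1, at -1.81, lies farthest left, and Rbp4 follows at -0.65.

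Genes known to respond to retinoic acid were taken from a list of 17, chosen with earlier results of these data known. Of 9 with an adjusted p, 3 were called lower and 1 higher, beside 1.53% and 1.42% of all genes. The median log2 fold change of these 9 was -0.19, against -0.01 over all genes at that level. Given how the list was chosen, these shares are a description and no test of a retinoic acid response. Nrip1, a corepressor that restrains thermogenic genes in fat, had 363, 499, 530.5 and 398 normalized counts in WT replicates 1 to 4. In Cd36KO Nrip1 had 215 in the unnumbered library and 280, 229 and 202 in replicates 2 to 4. All Cd36KO values lay below the WT range, and the gene fell by 0.95 on the log2 scale (SE 0.19, DESeq2 adjusted p = 0.000208). It passed DESeq2 with each library left out in turn.

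Rarres2, which encodes the adipokine chemerin, had 213, 416, 447 and 460 normalized counts in the WT replicates in order. In Cd36KO the unnumbered library had 197 and replicates 2, 3 and 4 had 171.5, 250 and 189. WT replicate 1 lay within the Cd36KO range and the other WT libraries above it. For Rarres2 the log2 fold change was -0.93 (SE 0.25, DESeq2 adjusted p = 0.0152). The call was lost, with DESeq2 adjusted p-values of 0.0570 to 0.0948, without Cd36KO replicate 4, the unnumbered library, WT replicate 2 or WT replicate 3.

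Pck1, the enzyme of glyceroneogenesis in fat, had 1797, 2648, 2209 and 2876 normalized counts in WT replicates 1 to 4. It had 833 in the unnumbered Cd36KO library and 1652, 1502 and 1462 in replicates 2 to 4, all below the WT range (log2 fold change -0.81, SE 0.23, DESeq2 adjusted p = 0.0231). Ucp1, the uncoupling protein of brown fat that also stands in the brown adipocyte marker list, rose. It had 5527, 4598, 4235 and 7028 normalized counts in WT, and 12310 in the unnumbered library and 8015, 9449 and 7938 in Cd36KO replicates 2 to 4. All Cd36KO values of Ucp1 lay above the WT range (log2 fold change 0.82, SE 0.20, DESeq2 adjusted p = 0.00843). The calls of Pck1 and Ucp1 were both lost without the unnumbered library, WT replicate 2 or WT replicate 3, with DESeq2 adjusted p-values up to 0.0924 for Pck1 and 0.0610 for Ucp1. None of the 4 called genes passed the edgeR quasi-likelihood test, in which Nrip1 came nearest (adjusted p = 0.0621). Each of the 4 had an unadjusted edgeR p under 0.05.

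**Figure D4:**
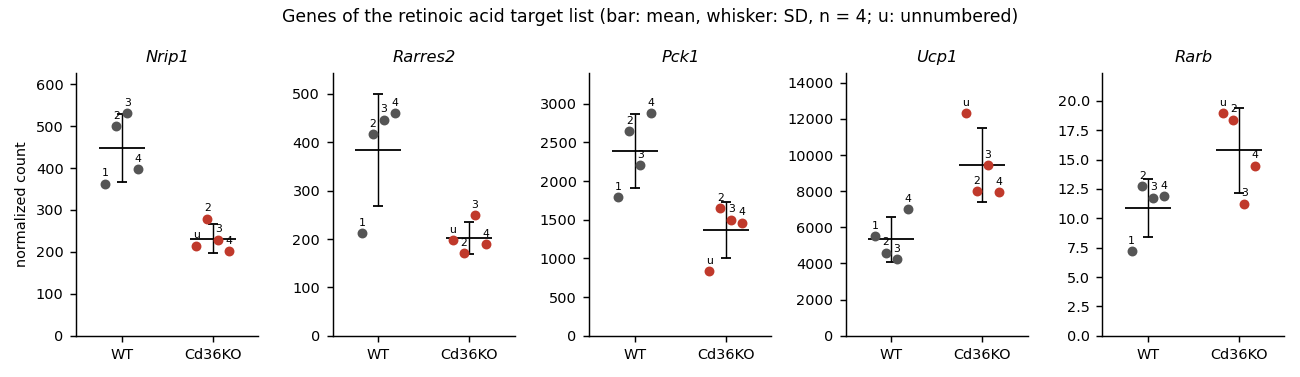
Normalized counts by library of the 4 called genes of the retinoic acid target list and of Rarb, in WT (grey) and Cd36KO (red), with the mean as a bar and the SD as a whisker (n = 4; numbers are replicates, u is the unnumbered library). The groups do not overlap for Nrip1, Pck1 and Ucp1, WT replicate 1 of Rarres2 lies among the Cd36KO points, and the groups of Rarb overlap.

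Rarb and Cyp26a1, direct retinoic acid targets, were low or not counted. Rarb was at 10.9 ± 2.49 normalized counts for WT and 15.8 ± 3.61 for Cd36KO (SD, n = 4), with a log2 fold change of 0.53 (SE 0.47, DESeq2 adjusted p = 0.643), and Cyp26a1 had none. Dhrs3, a retinaldehyde reductase, had 195 ± 56.1 and 170 ± 42.9 (log2 fold change -0.19, SE 0.26, DESeq2 adjusted p = 0.801). A retinoic acid response element of the DR5 type was searched for in the 250 bases before each start, on both strands, as a pair of half-sites with 5 bases between them, each half-site being AGGTCA or AGTTCA or GGGTCA or GGTTCA. It occurred in 29 of 32817 promoters (0.0884%). The matches in the lists are shown, with the half-sites in capitals, as examples of the element. The Rarb match lies at chr14:16575513-16575529 on the minus strand and the Cyp26a1 match at chr19:37697776-37697792, read on the minus strand.
Rarb: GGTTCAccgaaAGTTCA
Cyp26a1: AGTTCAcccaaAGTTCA
Of the 9 members, 7 had promoters in the RefSeq table, 16 in all, and none held a DR5 match. Rdh10 and Aldh1a3 had no entry. No match says only that these letters are absent from this window.

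No other aldehyde dehydrogenase was called. Of 16 such genes, 10 received an adjusted p and 0 passed, where 2.95% of all genes did, so nothing is read from this count. Their median log2 fold change was 0.13, with 8 of the 10 positive. By unadjusted p, 1 was under 0.05 in DESeq2 and 1 in edgeR. Aldh4a1, a mitochondrial enzyme of proline breakdown, had 346, 377, 273 and 391 normalized counts in WT replicates 1 to 4 and 727.5, 393.5, 431 and 486 in the unnumbered Cd36KO library and replicates 2 to 4. The groups of Aldh4a1 did not overlap, but the gene did not pass (log2 fold change 0.55, SE 0.22, DESeq2 adjusted p = 0.154). Aldh5a1, which breaks down GABA, had 114 ± 35.4 and 152 ± 20.4 (log2 fold change 0.42, SE 0.25, DESeq2 adjusted p = 0.414). Aldh1l1, an enzyme of folate metabolism, had 90.2 ± 46.0 and 59.2 ± 16.2 (log2 fold change -0.61, SE 0.39, DESeq2 adjusted p = 0.480), and was called lower without WT replicate 1 (log2 fold change -0.92, DESeq2 adjusted p = 0.0452).

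Within 1 Mb of the Aldh1a1 start there were 6 protein-coding genes, itself included. Beside Aldh1a1, 3 received an adjusted p and none was called, where 2.95% of all genes were. Zfand5, at 154 ± 42.0 for WT and 147 ± 38.4 for Cd36KO, had a log2 fold change of -0.08 (SE 0.26, DESeq2 adjusted p = 0.930). Gda, a guanine deaminase, had 138 ± 21.2 and 127 ± 14.9 (log2 fold change -0.12, SE 0.20, DESeq2 adjusted p = 0.843). Tmc1 had no count. Anxa1, whose start lies 101.8 kb upstream, was picked out after its values were seen, and its mean of 8.88 over the 8 libraries lay under the 10 set for naming. It had 12.6, 16.1, 9.41 and 16.8 normalized counts in WT replicates 1 to 4, and 4.46 in the unnumbered Cd36KO library and 1.15, 5.11 and 5.34 in replicates 2 to 4. The groups of Anxa1 did not overlap, on 58 and 17 raw counts (log2 fold change -1.75, SE 0.62), and independent filtering gave it no adjusted p. With that filtering off its DESeq2 adjusted p was 0.166. Over the settings that gave Anxa1 a DESeq2 adjusted p, it ranged from 0.0965 with TMM factors to 0.72 with the replicate block.

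**Figure D5:**
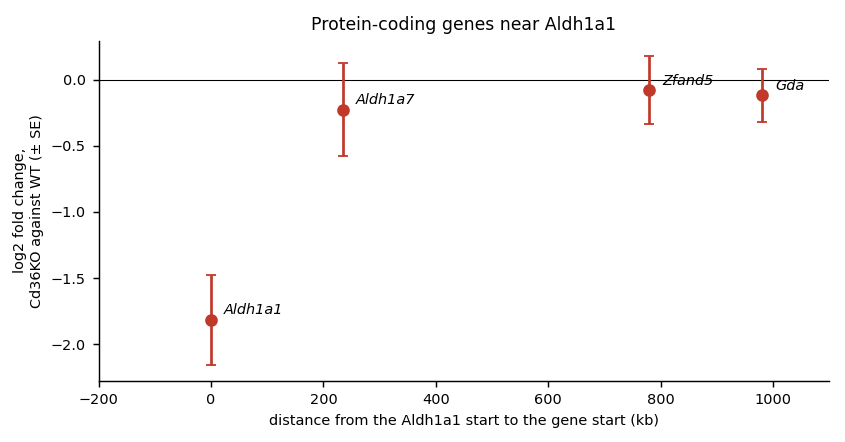
Log2 fold change of Cd36KO against WT with its standard error for protein-coding genes near Aldh1a1 that averaged at least 10 normalized counts over the 8 libraries, against the distance in kb from the Aldh1a1 start to the gene's start. Aldh1a1, chosen for its difference, lies at -1.81, and Aldh1a7, Zfand5 and Gda lie between -0.23 and -0.08. Anxa1, 101.8 kb upstream, averaged 8.88 and is not plotted (log2 fold change -1.75, SE 0.62).

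The white adipocyte markers that were called were, like Aldh1a1, lower in Cd36KO. Of 10 listed, with earlier results of these data known, Hoxc10 and Tcf21 had no count and 6 received an adjusted p. Of these 6, 5 were called lower and 0 higher, beside 1.53% and 1.42% of all genes. Summed over the 10, normalized counts were 734, 4212, 5160 and 4713 in WT replicates 1 to 4 and 638 to 1048 in Cd36KO. WT replicate 1 lay within the Cd36KO range. In that single library the 75.8 normalized counts of Aldh1a1 were 2.20 times the highest Cd36KO value, and without that replicate its log2 fold change was -1.86. With the white adipocyte marker score as a covariate the log2 fold change of Aldh1a1 was -1.46 (SE 0.57), and with the skeletal muscle marker score -1.32 (SE 0.40).

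With that covariate 2 of the 6 other members with an estimate changed sign. With the white adipocyte marker score in the model the log2 fold change of Aldh1a7 was 1.33 (DESeq2 adjusted p = 0.0225) and that of Rxra 0.21 (DESeq2 adjusted p = 0.753). Rdh10 (-0.43), Rara (-1.15), Rxrg (0.41) and Aldh1a3 (-0.83) kept theirs. Of the pathway genes outside the members, Rbp4 had 1.95 (DESeq2 adjusted p = 0.000728) and Dhrs9 -1.54, both changes of sign. The calls of all 4 target genes were lost. For Ucp1 the fold hardly moved (0.83, SE 0.32, DESeq2 adjusted p = 0.0869). For Nrip1 it was -0.67 (DESeq2 adjusted p = 0.158), for Pck1 -0.49 (DESeq2 adjusted p = 0.401) and for Rarres2 -0.10 (DESeq2 adjusted p = 0.883). The score separated 3 WT libraries (5.37 to 5.65) from the 5 others (3.20 to 3.88), so genotype and score were nearly aligned. Brown adipocyte markers went the other way, with 4 of 10 called higher, beside 1.42% of all genes. Their summed counts were 17810 to 23240 in WT and 31810 to 40530 in Cd36KO. The edgeR test called 0 of the brown markers and 4 of the white markers, all lower, where it called 0.143% of its genes. Skeletal muscle markers ranged from 547 to 46490 in WT and from 34.8 to 6518 in Cd36KO. Summed macrophage markers were 552 to 834 in WT and 599 to 909 in Cd36KO, and stromal progenitor markers 1886 to 2363 and 1680 to 1972, with 0 called in either list. General adipocyte markers were 26900 to 49440 and 24680 to 30290, with all 6 estimates negative, and Schwann cell markers 285 to 366.5 and 166 to 292. Endothelial markers were 908 to 1617 and 1078 to 1561, and lymphocyte markers 26.2 to 34.6 and 19.6 to 36.8. No gene of these lists was called. Mesothelial markers, of interest for Aldh1a2, were 27.2 to 124 and 32.7 to 178, with Upk3b, Msln, Wt1 and Upk1b at 0 in every library. The part of these cell types in the differences of the retinoid genes was not tested beyond these values.

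The genes whose values followed Aldh1a1 most closely across the 8 libraries, after the group means were subtracted, were Cnih1, Gramd1a, Acsl5, Gpr89 and Cdc34. Their Pearson r was 0.92 to 0.95 among 5527 genes whose normalized counts averaged at least 50, and with so many genes over 8 libraries this is a description only. Aldh1a7 had an r of 0.65 on the same measure, Rxra 0.16 and Rxrg 0.07. Among white adipocyte markers r was 0.56 for Hoxc8, 0.36 for Retn, 0.11 for Lep, 0.07 for Dpt and -0.05 for Nnat.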

How the data were processed

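RNA was extracted from BAT and sequenced as single-end reads by a digital mRNA-seq service. The deposited values are whole-number counts per gene, made by the authors with bbduk, STAR and HTSeq-count per the study's methods. The submitters' processing notes instead list Trimmomatic, HISAT2 and DESeq2 with builds GRCm38 and mm10, so the aligner is uncertain. Strand and molecular identifiers are not given in the sources used here, so overlapping, antisense and copied genes are less certain. A second deposited table of log2 values equals, within 0.001, log2 of the count over its size factor plus 1, and served an alternative only. Per the labels there were 4 libraries in each group. The count column of 1 Cd36KO library has no replicate number.

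Symbols and positions came from GENCODE M21 (30934 of 31053 identifiers matched), and promoters from RefSeq. Counts were tested with DESeq2 1.42.0 (Wald, Benjamini-Hochberg over all genes, threshold 0.05, default filters) in R 4.3.3, because the study names DESeq2, with genotype as the only term. Counts were normalized by DESeq2's size factors, and fold changes were not shrunk. Alternatives were edgeR 4.0.16 (quasi-likelihood), TMM factors, a filter of 10 counts in 4 libraries, no independent filtering, limma 3.58.1 on the log2 values, each library left out, a replicate block and marker scores as covariates. Functions were tested on simulated data. Sequences were aligned with Biopython 1.88, and figures drawn with matplotlib 3.10.9. The floor of 3 counts covers counting error only. The interval of a fold change comes from the DESeq2 standard error, which includes the spread between libraries.

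The members and gene lists were chosen with earlier results of these data known. Named are all members; from the pathway, target and other dehydrogenase lists every called gene, the 3 largest folds among the others with a mean of at least 10, and for each pathway role the gene with the highest mean; neighbours with a mean of at least 10; and 5 genes by likeness. A gene that this rule names is not reported here.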

Additional observations from a re-analysis of the deposited data

Results flagged for a closer look

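In groups of 4 libraries, a library was set aside for a closer look where its gap to the nearest other made up nearly the whole range of the group, on the log2 scale. This was so in 7 of 54 groups over 27 genes, where chance gives about 1 in 20. WT replicate 1 accounted for 3 of them. It had 213 normalized counts of Rarres2 against 416 to 460 in the other WT libraries, 7.22 of Rarb against 11.8 to 12.7, and 106.5 of Gda against 145 to 152. Cd36KO replicate 3 had 529 normalized counts of Rbp7 against 266 to 273 in the others. Cd36KO replicate 4 had 15.2 of Rara, above the other Cd36KO libraries. Crabp2 was set aside in both groups on very few counts, with 1 count (0.849 normalized) in WT replicate 2, 2 counts (2.30 normalized) in Cd36KO replicate 2 and none in the others.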

How the results depend on the processing

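The log2 fold change of Aldh1a1, given with no test, differed from -1.81 by less than 0.52, the SD between libraries of a group on the log2 scale, in 17 of 18 alternatives. It was -2.03 to -1.60 with each library left out, -1.46 with the white score and -1.32 with the muscle score. The exception, chosen after seeing the data, counted Aldh1a1 and Aldh1a7 as 1 gene (-0.58). With limma on the authors' log2 values 0 genes were called in all (1556 at an unadjusted p under 0.05), and so 0 of each list. The edgeR test called 14 genes and 0 of the retinoic acid targets (1580 genes at an unadjusted p under 0.05). Without independent filtering 171 genes were called, with the muscle score 175 and with the white score 587. The white score gave 3 pathway genes called higher (Aldh1a7, Dhrs4, Rbp4), 0 lower, 1 target (Tgm2) and 1 other dehydrogenase (Aldh2), and reversed Aldh1a7 (1.33) and Rxra (0.21). The muscle score gave 1 other dehydrogenase (Aldh4a1) and reversed Rara (0.22).

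Leaving out a library gave 70 to 498 calls in all, a shift of over 1.5 times without WT replicates 2, 3 or 4, Cd36KO replicates 3 or 4 or the unnumbered library. It gave 0 to 1 pathway genes higher (Dhrs9, without WT replicate 1), 1 to 4 targets and 0 to 1 other dehydrogenases (Aldh1l1). The pathway genes called lower and the neighbours called each numbered 0 to 1, and that 1 was Aldh1a1 itself, so no other gene of either kind was called. Without Cd36KO replicate 2 or WT replicate 2 Aldh1a1 received no adjusted p. Rdh10 ranged from -0.39 to 0.18, Rara from -0.44 to 0.51 and Aldh1a7 from -0.48 to 0.12.

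The replicate numbers 2, 3 and 4 shared by both groups gave correlations of deviations of -0.121, 0.415 and 0.139, so they were not taken to pair the libraries. A replicate block on these 6 libraries called 221 genes, and the same libraries without it 262. With the block 1 pathway gene was called higher (Dhrs9) and 2 lower, of which Aldh1a1 was chosen for its difference and is no result, and the other was Rbp4. Rdh10 (0.25) and Rara (0.65) reversed. Without the block, an alternative added after seeing the data, the counts were 1 and 2, the other dehydrogenases had 1 call (Aldh1l1), and Rdh10 and Rara were 0.26 and 0.55.

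Windows of 50 bases instead of 75 raised the share of Aldh1a1 found in another copy from 2.53% to 7.54%. Depth limited Aldh1a2, Stra6 and Aldh1a3, with at most 19 counts in a group.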
